A study of Homo sapiens with 15 samples.

Results

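Oxidative phosphorylation was examined through 97 genes that encode subunits of its 5 complexes, among 17237 genes measured in either of 2 human clear cell renal cell carcinoma (ccRCC) lines. The genes were chosen by symbol and not by any measured value, as the symbols that begin with MT-ND, MT-CO, MT-ATP, MT-CYB, NDUF with a letter from A, B, C, S or V and a digit, SDHA to SDHD, UQCR, COX with a digit from 4 to 8, or ATP5. Of the 97 genes, 13 lie on the mitochondrial genome and 84 in the nucleus, and all 97 were present among the 16296 genes of CAKi-1 and the 16188 genes of 786O. The mitochondrial genes comprised 7 of complex I, 1 of complex III, 3 of complex IV and 2 of complex V. The nuclear genes comprised 37 of complex I, 4 of complex II, 9 of complex III, 15 of complex IV and 19 of complex V, of which NDUFC2-KCTD14 and ATP5MF-PTCD1 are readthrough genes. Numbered pseudogenes of nuclear members, such as ATP5F1AP10 and NDUFB8P2 (10 over both lines), were left out, as were the mitochondrial pseudogenes (10 in each line), and the rule also does not take NDUFAB1, CYC1 and CYCS, which are described with the related genes.

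RNA was sequenced from CAKi-1 and 786O, both established ccRCC cell lines, with wild type (WT) cells and cells that had lost ANGPTL4 (A4KO) in each line. The A4KO cells were made by transfection with Cas9 protein and guide RNA against ANGPTL4, and clones that had lost its mRNA were combined, so that each A4KO population is a mixture of clones. For 786O, the WT cells were combined clones that had kept ANGPTL4, whereas for CAKi-1 the sources name either such clones or the parental cells. Loss of ANGPTL4 and differences between clones therefore cannot be told apart, and effect means here the A4KO minus WT difference. By the study's own account, VHL, the tumor suppressor lost in most ccRCC, is wild type in CAKi-1 and mutant in 786O. The labels describe CAKi-1 and 786O cells in RPMI with serum, harvested in log phase, while the methods of the study name DMEM. CAKi-1 gave 4 WT and 5 A4KO libraries and 786O gave 3 of each, made from poly(A)-selected RNA. Nothing states that the replicates came from separate cultures, so p-values measure only the spread between these libraries, which may be technical.

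Oxidative phosphorylation couples the oxidation of NADH and succinate to ATP synthesis across the inner mitochondrial membrane. Complexes I and II pass electrons to ubiquinone, complex III passes them to cytochrome c and complex IV to oxygen, and the proton gradient built by complexes I, III and IV drives ATP synthase, complex V. Complex II is encoded in the nucleus alone, the other complexes combine subunits of both genomes, and ccRCC is known for low mitochondrial content and high glycolysis.

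The mitochondrial genes are transcribed as long precursors from both strands, and some of them share bases, which bears on how reads were divided between them. In hg38, the end of MT-ATP8 and the start of MT-ATP6 share 46 bases on the plus strand. The end of MT-ND4L and the start of MT-ND4 share 7 bases. Capitals mark the shared bases in the stretches chrM:8507-8592 and chrM:10740-10786.
MT-ATP8/MT-ATP6: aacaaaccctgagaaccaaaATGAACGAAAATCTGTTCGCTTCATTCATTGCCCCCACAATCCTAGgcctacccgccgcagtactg
MT-ND4L/MT-ND4: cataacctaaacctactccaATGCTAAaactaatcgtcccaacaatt
MT-ND6 is the only one of the 13 on the minus strand, and its end at 14149 adjoins the end of MT-ND5 at 14148. The sources do not state that counting used strand, so that reads of MT-ND6 and of transcripts from the opposite strand cannot be told apart.

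The nuclear genes are spread over the chromosomes, and many are known to be activated by the nuclear respiratory factors NRF1 and GABP. RefSeq promoters (GRCh38.p14, 250 bases before to 50 bases after the start) were at hand for 66 of the 82 nuclear genes that are not readthroughs. The NRF1 motif, whose forms stand in capitals in the sequences shown, was in a promoter of 16 of the 66 genes (24.2%), against 11.4% of all 12766 measured genes with a promoter. All motifs were read on both strands. The ETS motif CCGGAAG, to which GABP binds, was in 31.8% against 19.4%, and the YY1 motif in 6.1% against 1.9%. The SP1 motif GGGCGG was in 66.7% against 72.1%, and the ERR motif TCAAGGTCA in 1.5% against 0.3%. A match is a description of these letters only. Shown are the bases just before the start of SDHA (plus strand, chr5:218150-218319), NDUFB4 (plus strand, chr3:120596166-120596335) and UQCR11 (minus strand, chr19:1605463-1605522), with the NRF1 matches in capitals, because they stand for a member that rose in both lines, one that passed the test in CAKi-1 and not in 786O, and one that passed in neither.
SDHA: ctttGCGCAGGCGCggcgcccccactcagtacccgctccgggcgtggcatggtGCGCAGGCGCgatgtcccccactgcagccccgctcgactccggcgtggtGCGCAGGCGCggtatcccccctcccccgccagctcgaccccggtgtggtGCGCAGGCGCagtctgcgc
NDUFB4: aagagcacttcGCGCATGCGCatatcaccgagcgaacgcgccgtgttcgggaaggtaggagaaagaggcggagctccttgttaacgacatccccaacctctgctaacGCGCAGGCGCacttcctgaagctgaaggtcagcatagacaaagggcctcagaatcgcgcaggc
UQCR11: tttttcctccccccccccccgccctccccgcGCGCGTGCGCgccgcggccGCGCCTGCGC
A further match of NDUFB4 runs past its start and is not shown in full. The 4 matches before SDHA repeat the same letters every 49 bases, from 166 to 10 bases before its start.

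Values are TPM, a relative transcript abundance corrected for length that keeps no record of read depth. ANGPTL4 was at 71.7 to 86.9 TPM in CAKi-1 WT and 2.87 to 7.26 TPM in A4KO libraries, and at 17.6 to 20.6 and 1.86 to 2.19 TPM in those of 786O. Of 12 markers of renal epithelium and ccRCC, 10 were present in CAKi-1 (not CA9 and PAX2) and 12 in 786O. Their summed level was 5593 to 6696 TPM in WT and 3036 to 3969.6 TPM in A4KO libraries for CAKi-1, and 6014 to 6231 and 4556 to 4601 TPM for 786O. By limma, 3 of the 10 were higher and 5 lower in CAKi-1, against 17.9% and 21.1% of all genes. Their log2 fold changes ran from -1.88 (KRT8) to 0.90, with a median of -0.14, and CDH6 had the largest called rise. In 786O, 2 of the 12 were higher and 9 lower, against 27.5% and 33.5% of all genes. The log2 fold changes there ran from -2.73 to 1.79, with a median of -0.43. Among those called in 786O, CA9 fell most and PAX2 rose most. Of 12 markers of leukocytes, endothelium, fibroblasts and erythroid cells, the 6 present in each line summed to 74.7 to 78.1 TPM in WT and 69.8 to 91.8 TPM in A4KO libraries of CAKi-1 and to 50.7 to 54.1 and 25.9 to 28.7 TPM in 786O, and CD3E, MS4A1, CDH5, KDR, HBB and HBA1 were not among the genes measured. Of these 6, 1 was higher and 3 lower in 786O, against 27.5% and 33.5% of all genes, and 1 was higher and 1 lower in CAKi-1, against 17.9% and 21.1%. In 786O the values ran from -1.96 to 1.998. There PDGFRB rose by 1.998 (SE 0.14, limma adjusted p = 5.8e-05) and LUM had the largest called fall. In CAKi-1 they ran from -0.85 to 1.55, with PECAM1 called higher and LUM called lower. A4KO replicates 1 and 4 of CAKi-1 stood apart from the other 3, and WT replicate 4 from the other WT libraries, and values without A4KO replicates 1 and 4 stand beside several results. In bulk RNA, fewer cells of one kind and less RNA per cell cannot be told apart.

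The OXPHOS genes were among the most abundant transcripts of both lines. The median nuclear member (readthroughs apart) had a mean of 161 TPM in CAKi-1 and 183 TPM in 786O, against 10.8 and 12.0 TPM for the median of all genes, and 59 and 57 of the 82 were at 100 TPM or above. The median mitochondrial gene had a mean of 4268 TPM in CAKi-1 and 5895 TPM in 786O. Within each complex, the highest nuclear means of CAKi-1 were NDUFA13 (509 TPM), SDHC (271 TPM), UQCRH (927 TPM), COX4I1 (797 TPM) and ATP5PD (814 TPM), and those of 786O were NDUFS5 (577 TPM), SDHC (195 TPM), UQCRH (719.7 TPM), COX4I1 (689.5 TPM) and ATP5MF (966 TPM). MT-CO1 led in CAKi-1 with 11308 TPM and MT-CO2 in 786O with 11788 TPM. The lowest members were tissue-restricted forms and copies of other members, namely COX6B2, UQCRHL, NDUFA4L2 and COX7A1, at means of 0.154 to 2.15 TPM.

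Summed over the 13 mitochondrial genes, the level was 72505, 79155 and 75669.8 TPM in 786O WT replicates 1 to 3 and 97065, 95524.5 and 91712 TPM in A4KO replicates 1 to 3. The groups did not overlap, with 75777 ± 3327 TPM in WT and 94767 ± 2756 TPM in A4KO cells (SD, n = 3 each), a ratio of 1.25. Mitochondrial transcripts made up 7.82% ± 0.345 of a WT library and 9.77% ± 0.276 of an A4KO library of this line (SD, n = 3 each). In CAKi-1 the sum was 75369, 75666, 75805 and 62190.4 TPM in WT and 77878, 66884, 63981, 76716 and 76303 TPM in A4KO libraries. There the ranges overlapped and the ratio of the means was 1.001, with WT replicate 4 and A4KO replicates 2 and 3 low.

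The nuclear genes summed to less. In 786O the sum was 19285, 19535 and 19533 TPM in WT and 20135, 20065 and 20026 TPM in A4KO libraries, a ratio of 1.03 without overlap. The median gene went the other way, from 7.59 to 7.38 on the log2(TPM + 1) scale, also without overlap, so the direction for nuclear genes of this line depends on the summary. In CAKi-1 the sum was 20479, 20471.5, 19558 and 19976 TPM in WT and 18096, 20349, 20217, 18006.5 and 20501 TPM in A4KO libraries, a ratio of 0.966 with overlap, with A4KO replicates 1 and 4 below all others. The median gene there went from 7.41 to 7.26 without overlap. A4KO replicates 1 and 4 of CAKi-1 were the lowest for complexes I, II, IV and V, and for complex V they held 5254 and 5290.2 TPM against 6125 to 6532 TPM in the other 7 libraries of the line. The mitochondrial to nuclear ratio was 3.90 ± 0.147 in 786O WT and 4.72 ± 0.125 in 786O A4KO cells (SD, n = 3 each), and 3.59 ± 0.331 (SD, n = 4) and 3.75 ± 0.530 (SD, n = 5) in CAKi-1 WT and A4KO cells.

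**Figure D1:**
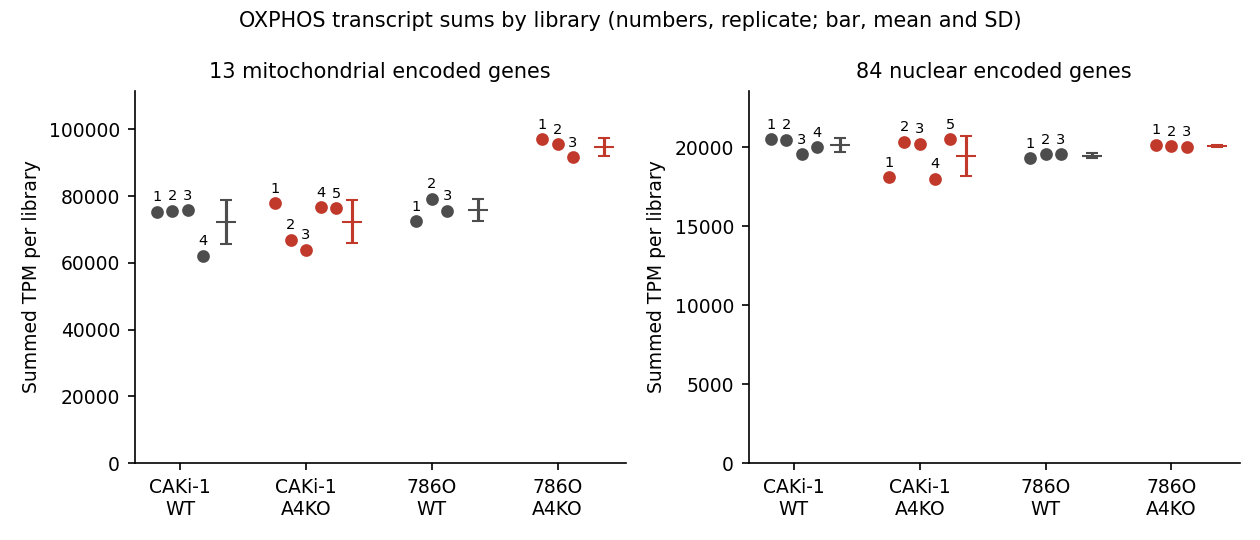
Summed TPM (vertical axis, from 0) of the 13 mitochondrial encoded genes (left) and the 84 nuclear encoded genes (right), where each point is a library, the number above it is its replicate, and the bar beside each group is the mean with SD (n = 4, 5, 3 and 3). The 786O A4KO libraries lay between 91712 and 97065 TPM for the mitochondrial genes, above the 72505 to 79155 TPM of 786O WT, and CAKi-1 A4KO replicates 1 and 4 lay lowest for the nuclear genes.

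Each gene was tested on the log2(TPM + 1) scale, A4KO against WT, within each line, and a gene was called at a limma adjusted p of at most 0.05 over all genes of the line. In 786O, 9 of the 13 mitochondrial genes were higher in A4KO cells and 1 was lower, whereas 27.5% of all genes of this line were higher and 33.5% lower. In CAKi-1, 0 of the 13 were higher by limma (0 also at an unadjusted p under 0.05) and 1 was lower, against 17.9% and 21.1% of all genes. The log2 fold changes of the 9 genes that rose in 786O ran from 0.16 to 0.68. With quantile normalization 7 were higher and 1 lower in 786O, against 32.6% and 27.6% of all genes, and the median over the 13 genes was 0.19 in place of 0.34, with MT-CO1 (0.11, limma adjusted p = 0.361), MT-ND4L (0.00) and MT-ND6 (-0.07, limma adjusted p = 0.12) no longer called and MT-ND5 lower (-0.16, limma adjusted p = 0.0264).

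The largest rises among the mitochondrial genes in 786O were those of 3 complex I subunits, MT-ND1, MT-ND3 and MT-ND2. MT-ND1, a membrane subunit of complex I next to the ubiquinone site, had 2732, 2966 and 2982 TPM in the WT libraries and 4802, 4660.1 and 4401 TPM in the A4KO libraries. Every A4KO library lay above every WT library, with a log2 fold change of 0.68 (SE 0.054, limma adjusted p = 9.1e-05). MT-ND3 was at 3725, 3888 and 3973 TPM in WT and 6145, 6133 and 5668 TPM in A4KO libraries, again without overlap, a log2 fold change of 0.63 (SE 0.049, limma adjusted p = 8.0e-05). MT-ND2, a further membrane subunit, rose by 0.57 (SE 0.054, limma adjusted p = 1.8e-04).

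The 3 core subunits of cytochrome c oxidase (complex IV), which hold its heme and copper centers or surround them, rose in 786O, MT-CO1 not with quantile normalization. MT-CO3 rose most, from 7813, 8316 and 7994 TPM in WT to 12334, 11423 and 10960.4 TPM in A4KO libraries, a log2 fold change of 0.52 (SE 0.055, limma adjusted p = 3.0e-04). For MT-CO1 and MT-CO2 the log2 fold changes were 0.27 (SE 0.040, limma adjusted p = 0.0013) and 0.34 (SE 0.047, limma adjusted p = 9.6e-04), and neither overlapped between the groups. The complex V subunits MT-ATP6, which forms the proton channel, and MT-ATP8 rose by 0.42 (SE 0.054, limma adjusted p = 7.1e-04) and 0.43 (SE 0.070, limma adjusted p = 0.0023). With quantile normalization MT-CO3 was at 0.34 (limma adjusted p = 5.8e-04) and MT-ATP8 at 0.19 (limma adjusted p = 0.002). The 46 bases that MT-ATP8 and MT-ATP6 share leave the division of their reads uncertain.

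Toward the other end of the mitochondrial genome the values in 786O were lower. MT-ND4L rose by 0.16 (SE 0.048, limma adjusted p = 0.0273), while MT-ND4 had a log2 fold change of 0.13 (SE 0.049, limma adjusted p = 0.0549), short of the threshold although its groups did not overlap. MT-ND5 was at 2289, 2577 and 2512 TPM in WT and 2336, 2377 and 2239 TPM in A4KO libraries, which overlapped, with -0.08 (SE 0.056, limma adjusted p = 0.242). For MT-CYB, the cytochrome b of complex III, the log2 fold change was -0.08 (SE 0.071, limma adjusted p = 0.401). MT-ND6 fell, from 3115, 3333 and 3313 TPM in WT to 2895, 2876 and 2789 TPM in A4KO libraries without overlap, a log2 fold change of -0.19 (SE 0.042, limma adjusted p = 0.0084).

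In CAKi-1 the same 3 genes at the end of the genome, MT-ND5, MT-ND6 and MT-CYB, had the lowest values together with MT-ND1. MT-ND6 was at 2489, 2685, 3006 and 2205 TPM in WT and 2275, 2005, 1917, 2117 and 2237 TPM in A4KO libraries, and WT replicate 4 lay within the A4KO range. Its log2 fold change was -0.29 (SE 0.093, limma adjusted p = 0.0324), and the call was lost without WT replicate 1, 2 or 3 or without A4KO replicate 2, 3 or 4. Without WT replicate 4, in turn, 4 mitochondrial genes were lower. MT-ND5 and MT-CYB had -0.24 (SE 0.092, limma adjusted p = 0.0611) and -0.22 (SE 0.11, limma adjusted p = 0.153). MT-ND1 had -0.23 (SE 0.10, limma adjusted p = 0.0969) in this line, whereas it rose in 786O, and the difference between the lines (the effect in CAKi-1 minus that in 786O, as for all such differences here) was -0.91 (SE 0.14, limma adjusted p = 7.7e-05). The other 9 mitochondrial genes of CAKi-1 had log2 fold changes from -0.16 to 0.14, none past the threshold, and the libraries overlapped for each.

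The share of MT-ND5, MT-ND6 and MT-CYB in the summed level of the 13 genes was a measure chosen after the values were seen. It was 12.0%, 12.1% and 12.6% in 786O WT and 9.00%, 9.12% and 8.85% in 786O A4KO libraries. In CAKi-1 it was 9.97%, 10.6%, 11.3% and 9.88% in WT and 8.82%, 8.85%, 9.15%, 8.34% and 8.50% in A4KO libraries. The share was lower in every A4KO library than in every WT library of its line, also in the CAKi-1 libraries whose sums stood apart. Since the 3 genes were picked for their low values, a lower share is partly built in. In 786O the 3 genes summed to 8675 to 9559 TPM in WT and 8115 to 8739 TPM in A4KO libraries. The other 10 genes there summed to 63830 to 69596 TPM in WT and 83596 to 88326 TPM in A4KO libraries.

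**Figure D2:**
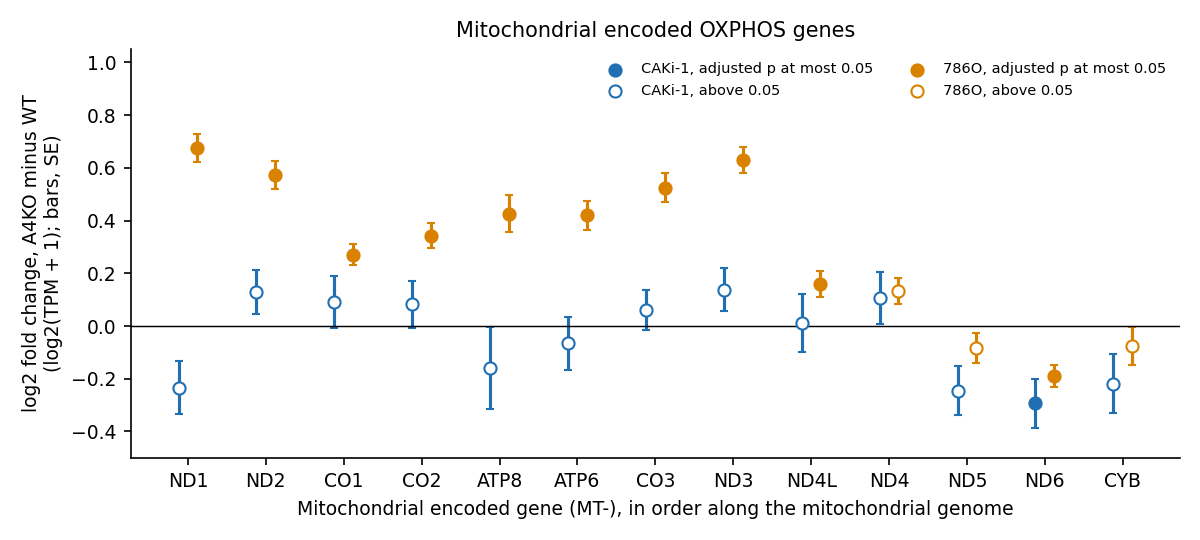
The log2 fold change (A4KO minus WT, on log2(TPM + 1), bars SE) of the 13 mitochondrial genes from left to right in their order along the mitochondrial genome, for CAKi-1 (4 WT and 5 A4KO libraries) and 786O (3 and 3), with filled points at an adjusted p of at most 0.05. In 786O the values run from 0.68 at MT-ND1 to -0.19 at MT-ND6, and in CAKi-1 only MT-ND6 is filled.

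The mitochondrial pseudogenes, nuclear copies that can share reads with the genes, were measured beside them. Of the 10 in each line, 4 were higher and 1 lower in 786O A4KO cells and 0 higher and 2 lower in CAKi-1, against 27.5% and 33.5%, and 17.9% and 21.1%, of all genes. They summed to 421 to 1291 TPM per library. MTND1P23, a copy of part of MT-ND1, had 0.80 (SE 0.061, limma adjusted p = 7.4e-05) in 786O and -0.59 (SE 0.13, limma adjusted p = 0.0075) in CAKi-1. Adding the 10 to the 13 genes left the ratio of A4KO to WT at 1.25 in 786O and 0.9995 in CAKi-1.

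Of the 84 nuclear genes, 28 were higher and 23 lower in 786O A4KO cells, and 6 were higher and 15 lower in CAKi-1 A4KO cells. That is 33.3% and 27.4% of the 84 in 786O and 7.14% and 17.9% in CAKi-1, beside the 27.5% and 33.5%, and the 17.9% and 21.1%, of all genes. Over all 97 members, 37 were higher and 24 lower in 786O, where 61.0% of genes were called in either direction, and 6 and 16 in CAKi-1, where 39.0% were. Libraries of the groups did not overlap for 46 higher and 26 lower members in 786O, against 30.1% and 36.8% of all genes (66.9% in either direction), and for 7 and 17 in CAKi-1, against 16.1% and 19.8% (35.9%). The median log2 fold change of the nuclear genes was 0.04 in 786O and -0.05 in CAKi-1. Past a log2 fold change of 1 in addition to the adjusted p lay 1 member, NDUFA4L2 in 786O, against 7.62% of all genes of this line and 0 members against 3.33% in CAKi-1. With quantile normalization 0 members of 786O lay past both thresholds, the lowest value being -0.92. Without A4KO replicates 1 and 4 of CAKi-1, 13 nuclear genes were higher and 11 lower, against 16.7% and 22.2% of all genes. With quantile normalization, 22 were higher and 12 lower in CAKi-1 (26.2% and 14.3%, against 18.1% and 20.2% of all genes) and 25 and 22 in 786O (29.8% and 26.2%, against 32.6% and 27.6%). A further value, called centred, is the log2 fold change after the median shift of 25 expressed neighbours on each side of a gene was taken off, and it stands beside many of the results that follow.

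**Figure D3:**
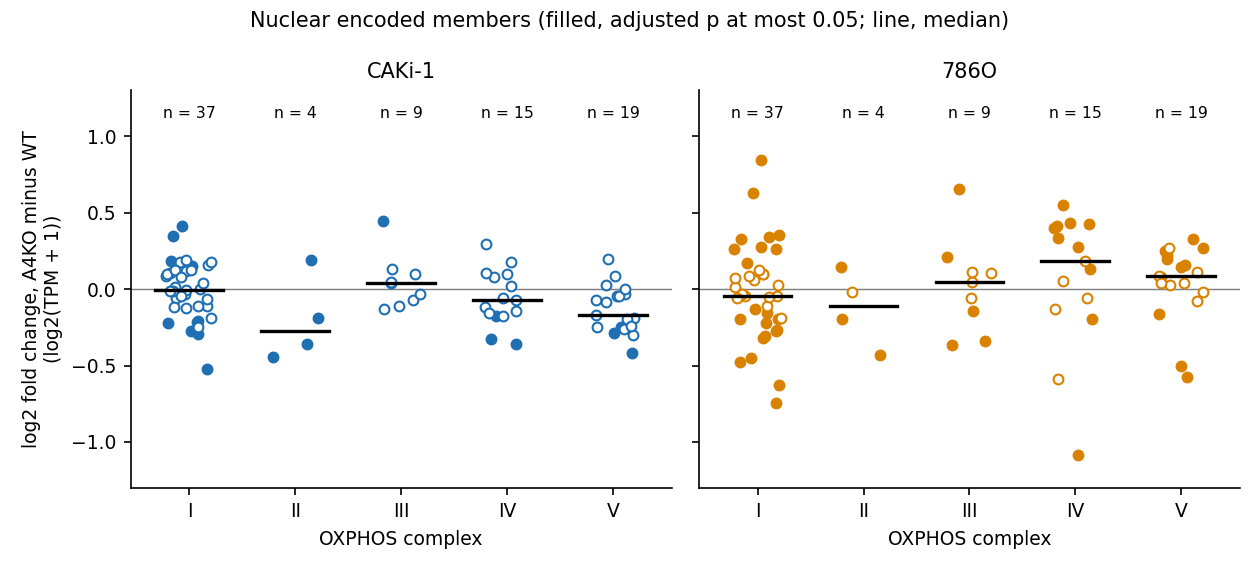
The log2 fold change (A4KO minus WT, on log2(TPM + 1)) of the 84 nuclear genes by complex in CAKi-1 (left) and 786O (right), where each point is a gene, filled at an adjusted p of at most 0.05, and the black line is the median. Complex IV lies highest in 786O with a median of 0.18, and complex II and complex V lie lowest in CAKi-1 with medians of -0.27 and -0.17. Without A4KO replicates 1 and 4 the medians of complex II and complex V in CAKi-1 were -0.25 and -0.03, and when centred -0.12 and -0.09.

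Complex I is the NADH:ubiquinone oxidoreductase. Of its 37 nuclear genes, 10 were higher and 13 lower in 786O (27.0% and 35.1%, near the 27.5% and 33.5% of all genes). In CAKi-1, 4 were higher and 6 lower (10.8% and 16.2%, against 17.9% and 21.1%). There the counts were 14 and 4 with quantile normalization, 8 and 5 without A4KO replicates 1 and 4 and 4 and 2 when centred. The 7 nuclear core subunits, among them the carriers of the flavin and the iron-sulfur clusters, included 1 higher and 3 lower in 786O and 0 higher and 3 lower in CAKi-1. When centred, 2 were higher and 2 lower in 786O, against 29.3% and 29.8% of all genes. In CAKi-1 0 were then higher and 0 lower, against 20.8% and 17.4%. NDUFS8 and NDUFV1 fell in both lines, with a log2 fold change of -0.27 (SE 0.055, limma adjusted p = 0.0059) and -0.15 (SE 0.047, limma adjusted p = 0.0280) in 786O and with a log2 fold change of -0.28 (SE 0.066, limma adjusted p = 0.0098) and -0.21 (SE 0.044, limma adjusted p = 0.0059) in CAKi-1. The centred values were -0.07 (limma adjusted p = 0.481) for NDUFS8 in CAKi-1 and 0.03 (limma adjusted p = 0.713) and -0.12 (limma adjusted p = 0.0923) for NDUFV1 in CAKi-1 and 786O, none of them called. NDUFS8, NDUFV1, NDUFC1, NDUFB4, UQCRB, UQCRFS1, COX7C, ATP5F1B and ATP5F1C were singled out after their values were seen.

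Among the accessory subunits of complex I, which surround the core, NDUFA7 and NDUFA8 rose most in 786O. NDUFA7 went from 52.0, 51.7 and 47.7 TPM in WT to 88.3, 95.7 and 90.3 TPM in A4KO libraries, a log2 fold change of 0.85 (SE 0.052, limma adjusted p = 3.0e-05). NDUFA8 rose by 0.63 (SE 0.050, limma adjusted p = 8.8e-05), with 0.29 (limma adjusted p = 0.01) when centred. Both had small values in CAKi-1, with 0.13 (SE 0.049, limma adjusted p = 0.0660) for NDUFA7 and -0.01 (SE 0.066, limma adjusted p = 0.931) for NDUFA8, and their effects differed between the lines by -0.72 (SE 0.073, limma adjusted p = 2.0e-06) and -0.64 (SE 0.092, limma adjusted p = 5.0e-05). When centred, the difference for NDUFA8 was -0.24 (limma adjusted p = 0.0578). NDUFA7 passed the test in CAKi-1 at 0.16 (limma adjusted p = 0.0291) without A4KO replicates 1 and 4.

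NDUFB1 and NDUFA12 fell most of complex I in 786O. NDUFB1, of the distal membrane arm, fell from 240.1, 274 and 258 TPM in WT to 148, 149 and 162 TPM in A4KO libraries, a log2 fold change of -0.75 (SE 0.063, limma adjusted p = 1.2e-04), but its neighbours were at -0.73 and its centred value was -0.02 (limma adjusted p = 0.80). NDUFA12, which joins the complex late in its assembly, fell from 194, 198 and 202 to 126.19, 135 and 124 TPM, with -0.63 (SE 0.045, limma adjusted p = 5.7e-05). In CAKi-1 NDUFA12 was at 193, 182, 177 and 170.01 TPM in WT and 191, 215, 234, 185 and 199 TPM in A4KO libraries, which overlapped, with 0.18 (SE 0.077, limma adjusted p = 0.0954), and passed the test at 0.26 (limma adjusted p = 0.0222) without A4KO replicates 1 and 4.

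NDUFA5 was the complex I member that rose in both lines. It was at 60.2, 57.5, 51.7 and 58.1 TPM in CAKi-1 WT and 83.1, 71.4, 72.8, 81.0 and 71.7 TPM in CAKi-1 A4KO libraries, and at 82.4, 93.0 and 85.9 TPM and 113, 111 and 110.4 TPM in 786O, without overlap in either. The log2 fold changes were 0.41 (SE 0.069, limma adjusted p = 0.0017) and 0.35 (SE 0.052, limma adjusted p = 0.0013), the latter 0.21 (limma adjusted p = 0.0256) when centred. NDUFC1 fell in both, with a log2 fold change of -0.29 (SE 0.056, limma adjusted p = 0.0032) in CAKi-1 and -0.19 (SE 0.042, limma adjusted p = 0.0076) in 786O, where the centred value was -0.07 (limma adjusted p = 0.172).

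NDUFB10 and NDUFA13 moved in opposite directions in the lines. NDUFB10 had the largest fall of any member in CAKi-1, from 196, 189, 169 and 178 TPM in WT to 109.9, 140.4, 134, 120.3 and 133 TPM in A4KO libraries, with -0.52 (SE 0.081, limma adjusted p = 0.0011), and it rose in 786O by 0.27 (SE 0.047, limma adjusted p = 0.0027). NDUFA13, also known as GRIM-19, rose in CAKi-1 from 455, 448, 443 and 422 to 565, 591, 596, 534 and 527 TPM, with 0.35 (SE 0.055, limma adjusted p = 0.0012), and fell in 786O with a log2 fold change of -0.31 (SE 0.046, limma adjusted p = 0.0014). The differences between the lines were -0.79 (SE 0.11, limma adjusted p = 3.4e-05) for NDUFB10 and 0.65 (SE 0.077, limma adjusted p = 7.7e-06) for NDUFA13. When centred, the directions no longer differed between the lines. NDUFB10 then had -0.21 (limma adjusted p = 0.0171) in CAKi-1, no longer the largest fall, and -0.13 (limma adjusted p = 0.0334) in 786O, and NDUFA13 had 0.27 (limma adjusted p = 0.0058) and 0.10 (limma adjusted p = 0.170). The centred differences were -0.08 (limma adjusted p = 0.387) and 0.18 (limma adjusted p = 0.0890), neither called. NDUFB4 and NDUFS5 rose in CAKi-1 by 0.15 (SE 0.043, limma adjusted p = 0.0214) and 0.18 (SE 0.052, limma adjusted p = 0.0204), and in 786O had 0.13 (SE 0.048, limma adjusted p = 0.0575) and -0.06 (SE 0.039, limma adjusted p = 0.240). Their centred values in CAKi-1 were 0.27 (limma adjusted p = 0.0024) and 0.06 (limma adjusted p = 0.357).

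Complex II, succinate dehydrogenase, which also serves the tricarboxylic acid cycle, had 4 genes. In CAKi-1, 1 was higher and 3 lower, against 17.9% and 21.1% of all genes. In 786O, 1 was higher and 2 lower, against 27.5% and 33.5%. SDHA, the flavoprotein that oxidizes succinate, was the gene of the complex that rose. It was at 125, 128, 126.38 and 134 TPM in CAKi-1 WT and 139.9, 151, 150.4, 140.4 and 151 TPM in CAKi-1 A4KO libraries, and at 169.68, 162 and 168 TPM and 179, 181 and 194 TPM in 786O, higher in every A4KO library. The log2 fold changes were 0.19 (SE 0.048, limma adjusted p = 0.0125) and 0.15 (SE 0.045, limma adjusted p = 0.0279). SDHA has pseudogenes of close sequence that could share its reads, so its level is less certain.

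The iron-sulfur subunit SDHB fell in both lines. It was at 117, 118, 109 and 123 TPM in CAKi-1 WT and 73.1, 93.2, 90.5, 78.5 and 94.4 TPM in CAKi-1 A4KO libraries, with A4KO replicates 1 and 4 lowest, a log2 fold change of -0.44 (SE 0.085, limma adjusted p = 0.0033), and -0.33 (limma adjusted p = 0.0022) without them. The groups did not overlap. In 786O SDHB was at 109, 109 and 106 TPM and 92.4, 89.5 and 102 TPM, with -0.19 (SE 0.056, limma adjusted p = 0.0237). SDHD, a membrane anchor, fell by 0.19 (SE 0.064, limma adjusted p = 0.0407) in CAKi-1 and with a log2 fold change of -0.43 (SE 0.041, limma adjusted p = 1.9e-04) in 786O, and in CAKi-1 the value without A4KO replicates 1 and 4 was -0.20 (limma adjusted p = 0.0797).

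SDHC is the other anchor. In CAKi-1 it fell from 320.0, 305, 302 and 307 TPM in WT to 237, 247, 256, 219.8 and 245 TPM in A4KO libraries without overlap, a log2 fold change of -0.36 (SE 0.054, limma adjusted p = 9.4e-04). In 786O it was at 194, 192 and 204 TPM and 193, 193 and 195 TPM, which overlapped, with -0.02 (SE 0.038, limma adjusted p = 0.665). The difference of the effects was -0.34 (SE 0.072, limma adjusted p = 0.0013), and 0.01 (limma adjusted p = 0.939) when centred. The centred values in CAKi-1 were 0.03 for SDHA (limma adjusted p = 0.627), -0.14 for SDHB (limma adjusted p = 0.243), -0.12 for SDHC (limma adjusted p = 0.0992) and -0.12 for SDHD (limma adjusted p = 0.168). In 786O, SDHA then had 0.06 (limma adjusted p = 0.263), SDHB -0.21 (limma adjusted p = 0.0239), and SDHD turned to 0.12 (limma adjusted p = 0.0455). SDHC gained a lower call in 786O when centred, so that 1 of the 4 was higher and 2 were lower.

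**Figure D4:**
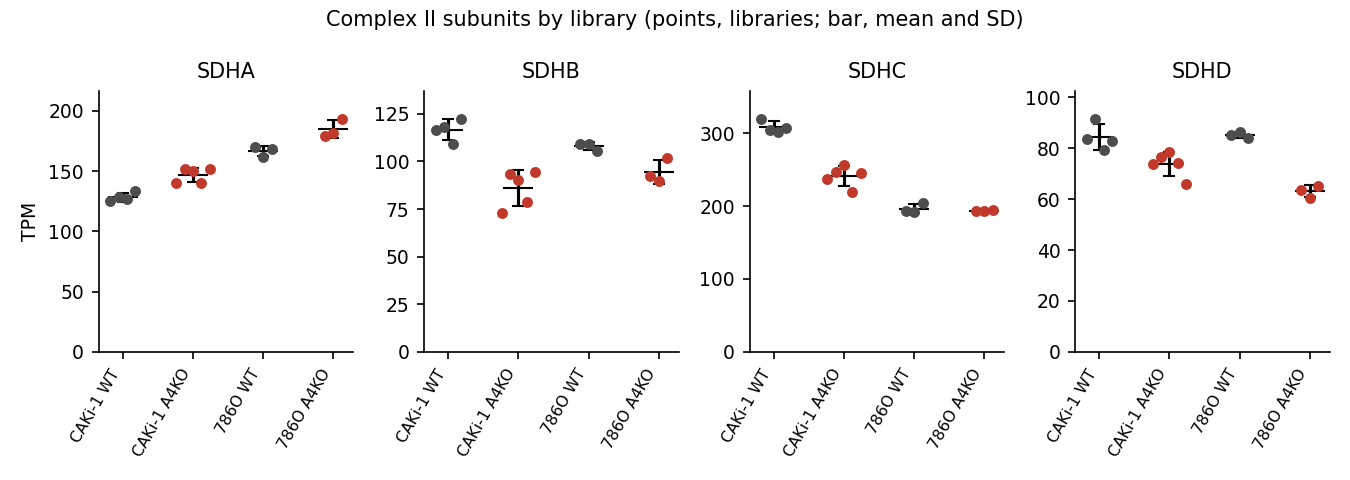
TPM (vertical axes, from 0, a scale for each gene) of the 4 complex II genes, where each point is a library and the bars are the mean and SD of the group (n = 4, 5, 3 and 3). SDHA is higher and SDHB and SDHD are lower in the A4KO libraries of both lines, before any centring on neighbouring genes, and SDHC is lower in CAKi-1 A4KO libraries at 219.8 to 256 TPM against 302 to 320.0 TPM in WT, while its groups overlap in 786O.

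Complex III, the cytochrome bc1 complex, had 2 higher and 3 lower of 9 nuclear genes in 786O and 1 higher and 0 lower in CAKi-1 by limma (0 lower also at an unadjusted p under 0.05), against 27.5% and 33.5%, and 17.9% and 21.1%, of all genes. When centred, 4 were higher and 2 lower in 786O. Its largest changes lay in the core proteins UQCRC1 and UQCRC2. UQCRC1 rose in CAKi-1 from 130.1, 129.7, 128 and 131 TPM in WT to 179, 193, 172, 182 and 161 TPM in A4KO libraries, a log2 fold change of 0.45 (SE 0.056, limma adjusted p = 3.6e-04). In 786O it fell, from 333, 345 and 317 to 256, 259 and 258 TPM, with -0.36 (SE 0.042, limma adjusted p = 4.7e-04). The groups did not overlap in either line, and the effects differed by 0.81 (SE 0.077, limma adjusted p = 1.0e-06). The centred value in 786O was -0.13 (limma adjusted p = 0.0461) and the centred difference 0.44 (limma adjusted p = 3.6e-04).

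UQCRC2 went the other way round. It was at 53.9, 52.2 and 51.0 TPM in 786O WT and 81.4, 85.9 and 81.8 TPM in 786O A4KO libraries, a log2 fold change of 0.66 (SE 0.041, limma adjusted p = 3.2e-05), and 0.28 (limma adjusted p = 0.0021) when centred. In CAKi-1 it was at 77.4, 75.3, 81.5 and 71.4 TPM in WT and 67.8, 64.3, 65.9, 69.3 and 87.9 TPM in A4KO libraries, where replicate 5 was the highest and the other 4 lay below the WT libraries, with -0.11 (SE 0.092, limma adjusted p = 0.371). The Rieske iron-sulfur protein UQCRFS1 fell in 786O with a log2 fold change of -0.15 (SE 0.043, limma adjusted p = 0.0259), and UQCRB, which binds near the ubiquinone site, with a log2 fold change of -0.34 (SE 0.048, limma adjusted p = 0.0012). UQCRFS1 turned to 0.34 (limma adjusted p = 9.3e-04) when centred.

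Complex IV had the highest share of risen nuclear genes among the complexes in 786O, 8 of 15 with 2 lower (53.3% and 13.3%, against 27.5% and 33.5% of all genes), and 0 higher and 3 lower in CAKi-1 by limma (1 higher at an unadjusted p under 0.05), against 17.9% and 21.1%. With quantile normalization 3 were higher and 3 lower in CAKi-1, against 18.1% and 20.2% of all genes. COX5A, an early partner of MT-CO1, rose in 786O from 226, 223 and 224 TPM in WT to 328, 324 and 333 TPM in A4KO libraries, a log2 fold change of 0.55 (SE 0.033, limma adjusted p = 2.6e-05). COX4I1, its partner subunit and the most abundant nuclear member of the complex, went from 571, 596 and 599.7 to 791, 790.4 and 789 TPM, with 0.42 (SE 0.036, limma adjusted p = 1.1e-04). COX6A1 rose by 0.43 (SE 0.036, limma adjusted p = 1.1e-04), COX7C by 0.41 (SE 0.045, limma adjusted p = 3.5e-04) and COX7B by 0.40 (SE 0.078, limma adjusted p = 0.0046). COX7A2L, which takes part in the joining of complexes III and IV, rose by 0.34 (SE 0.057, limma adjusted p = 0.0025). The centred values were 0.28 (limma adjusted p = 8.4e-04) for COX5A, 0.06 (limma adjusted p = 0.288) for COX4I1, 0.83 (limma adjusted p = 2.8e-04) for COX7B and 0.21 (limma adjusted p = 0.0062) for COX7A2L, so that COX4I1 alone of these 4 lost its call.

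The 3 falls in CAKi-1 were those of COX6A1, COX8A and COX7A1, of which COX8A alone was called without A4KO replicates 1 and 4 and COX7A1 alone when centred. COX5A was at 334, 349, 330.4 and 327 TPM in WT and 276, 323, 319.6, 281 and 322 TPM in A4KO libraries, with -0.14 (SE 0.065, limma adjusted p = 0.113), COX4I1 had -0.12 (SE 0.057, limma adjusted p = 0.137) and COX6A1 -0.18 (SE 0.060, limma adjusted p = 0.0437). For COX6A1 the value was -0.11 (limma adjusted p = 0.114) without A4KO replicates 1 and 4, -0.10 (limma adjusted p = 0.126) with quantile normalization and -0.01 (limma adjusted p = 0.878) when centred. COX8A, a small membrane subunit, fell in CAKi-1 from 604, 616, 589.9 and 559 to 442, 505, 475, 412 and 475 TPM, a log2 fold change of -0.36 (SE 0.066, limma adjusted p = 0.0026), and had 0.05 (SE 0.038, limma adjusted p = 0.288) in 786O. Centred, it was at -0.09 (limma adjusted p = 0.322) in CAKi-1 and 0.19 (limma adjusted p = 0.0067) in 786O. The effects differed between the lines by -0.69 (SE 0.084, limma adjusted p = 1.1e-05) for COX5A, -0.54 (SE 0.076, limma adjusted p = 3.9e-05) for COX4I1, -0.61 (SE 0.079, limma adjusted p = 2.0e-05) for COX6A1 and -0.41 (SE 0.087, limma adjusted p = 0.0012) for COX8A. The centred differences were -0.46 (limma adjusted p = 0.0014), 0.11 (limma adjusted p = 0.297), -0.31 (limma adjusted p = 0.0031) and -0.28 (limma adjusted p = 0.0183), in the same order.

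Paralogues of complex IV subunits gave smaller or less certain values. NDUFA4, once assigned to complex I, had 0.18 (SE 0.097, limma adjusted p = 0.150) in 786O and -0.17 (SE 0.13, limma adjusted p = 0.317) in CAKi-1, where WT replicate 4 at 147 TPM stood above the 99.3 to 101 TPM of the other WT libraries. Its paralogue NDUFA4L2, known as a hypoxia-induced gene of ccRCC, fell in 786O from 2.04, 2.06 and 3.31 to 0.648, 0.763 and 0.439 TPM, a log2 fold change of -1.09 (SE 0.15, limma adjusted p = 0.0011). In CAKi-1 NDUFA4L2 was at 0.114 to 0.919 TPM in WT and 0.286 to 2.34 TPM in A4KO libraries, a wide spread at a low level, with 0.30 (SE 0.27, limma adjusted p = 0.422).

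COX6B1 had -0.19 (SE 0.037, limma adjusted p = 0.0043) in 786O and 0.10 (SE 0.056, limma adjusted p = 0.193) in CAKi-1, and COX7A2 had -0.13 (SE 0.054, limma adjusted p = 0.0853) and 0.02 (SE 0.076, limma adjusted p = 0.839). COX6B1 turned to 0.19 (limma adjusted p = 0.0067) in 786O when centred. The muscle form COX7A1 fell in CAKi-1 with -0.33 (SE 0.10, limma adjusted p = 0.0340) at means of 1.17 ± 0.201 TPM (SD, n = 4) and 0.741 ± 0.231 TPM (SD, n = 5), and had -0.59 (SE 0.32, limma adjusted p = 0.161) in 786O. Its value in CAKi-1 was -0.34 (limma adjusted p = 0.0546) without A4KO replicates 1 and 4 and -0.50 (limma adjusted p = 0.0105) when centred. COX6B2 stayed below 1 TPM in every library of both lines, with 0.10 (SE 0.087, limma adjusted p = 0.383) in CAKi-1 and -0.06 (SE 0.042, limma adjusted p = 0.286) in 786O, where its centred value was 0.17 (limma adjusted p = 0.0240). At such levels the log2(TPM + 1) scale understates a gene's own change, while the shift of its neighbours is taken off whole. The centred values of COX7A1 and COX6B2 are therefore uncertain.

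Complex V, ATP synthase, had 7 higher and 3 lower of 19 nuclear genes in 786O and 0 higher and 3 lower in CAKi-1 by limma (0 higher also at an unadjusted p under 0.05), against 27.5% and 33.5%, and 17.9% and 21.1%, of all genes. When centred, 6 were higher and 1 lower in 786O and 1 higher and 3 lower in CAKi-1. With quantile normalization 2 were higher and 3 lower in CAKi-1, against 18.1% and 20.2% of all genes. The split was also 2 and 3 without A4KO replicates 1 and 4, against 16.7% and 22.2%. The 3 genes for the same c-ring subunit rose in 786O, ATP5MC1 by 0.33 (SE 0.036, limma adjusted p = 3.3e-04), ATP5MC2 by 0.22 (SE 0.040, limma adjusted p = 0.0035) and ATP5MC3 by 0.16 (SE 0.036, limma adjusted p = 0.0092) (0.31 when centred). ATP5MC1 was at 216, 218 and 222 TPM in 786O WT and at 268, 277 and 280.4 TPM in 786O A4KO libraries. In CAKi-1 it was at 260.4, 290.1, 255 and 252 TPM in WT and 193, 246, 269, 194 and 283 TPM in A4KO libraries, where replicates 1 and 4 were low, with -0.17 (SE 0.12, limma adjusted p = 0.307). The other c-ring genes had -0.07 (SE 0.038, limma adjusted p = 0.167) for ATP5MC2 and -0.19 (SE 0.11, limma adjusted p = 0.196) for ATP5MC3 in that line.

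ATP5MJ and ATP5MG, small membrane subunits, fell in 786O. ATP5MJ went from 129, 148 and 136 to 89.4, 89.8 and 96.1 TPM, with -0.58 (SE 0.062, limma adjusted p = 3.2e-04), and ATP5MG had -0.50 (SE 0.049, limma adjusted p = 2.2e-04). Neither fall was left when centred, at 0.10 (limma adjusted p = 0.272) and 0.07 (limma adjusted p = 0.287). In CAKi-1 they had -0.03 (SE 0.064, limma adjusted p = 0.751) and 0.03 (SE 0.062, limma adjusted p = 0.752).

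ATP5IF1, which inhibits ATP hydrolysis by the synthase, had the largest fall of complex V in CAKi-1. It was at 204, 197, 174 and 192 TPM in WT and 139.5, 151, 145, 140.2 and 141 TPM in A4KO libraries, a log2 fold change of -0.42 (SE 0.056, limma adjusted p = 5.2e-04), and -0.39 (limma adjusted p = 0.0024) without A4KO replicates 1 and 4, and -0.23 (limma adjusted p = 0.0142) when centred. In 786O it had 0.03 (SE 0.047, limma adjusted p = 0.646). The catalytic subunit ATP5F1B fell in CAKi-1 with a log2 fold change of -0.24 (SE 0.078, limma adjusted p = 0.0332) and the central stalk subunit ATP5F1C with a log2 fold change of -0.29 (SE 0.052, limma adjusted p = 0.0024), while in 786O they had 0.08 (SE 0.032, limma adjusted p = 0.0672) and -0.02 (SE 0.044, limma adjusted p = 0.720). ATP5F1B was at -0.13 (limma adjusted p = 0.0384) in CAKi-1 without A4KO replicates 1 and 4, and ATP5F1C at -0.01 (limma adjusted p = 0.825) when centred.

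Nuclear members lie among other genes of their chromosomes, and neighbouring genes were shifted together in 786O. The median shift of the 25 expressed genes on each side of a nuclear member reached from -0.73 to 0.42 on the log2 scale in 786O and from -0.31 to 0.20 in CAKi-1. It was past 0.2 in either direction for 25 members in 786O and for 12 in CAKi-1. NDUFB1 and ATP5MJ, both on chromosome 14, had neighbours at -0.73 and -0.68. COX4I1, NDUFB10 and UQCRC2, the 3 members on chromosome 16, had neighbours shifted by 0.36, 0.40 and 0.37.

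COX7B, on the X chromosome, moved from 0.40 to 0.83 when centred, since its neighbours were at -0.43. Values that hardly moved were 0.86 for NDUFA7, -0.66 for NDUFA12 and -1.14 for NDUFA4L2.

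Of the 51 nuclear members called in 786O, 31 kept their call and direction after the neighbours were taken off, 16 lost the call and 4 turned (COX6B1, NDUFB10, SDHD and UQCRFS1), and 12 others gained one. Those lost included NDUFA13, NDUFC1, NDUFV1, NDUFB2, NDUFB1, COX4I1 and SDHA. In CAKi-1, 9 of 21 kept it (NDUFA5, NDUFA13, NDUFB4, NDUFB10, NDUFC1, UQCRC1, COX7A1, ATP5F1B and ATP5IF1), 12 lost it and 4 others gained one. Those lost included the complex II genes, NDUFS5, NDUFS8, NDUFV1, NDUFB2, COX6A1, COX8A and ATP5F1C. NDUFA5 was the member that stayed higher in both lines, while UQCRC1 kept its opposite calls. Counted this way, 32 nuclear members were higher and 15 lower in 786O, where 29.3% and 29.8% of all genes were, and 7 were higher and 6 lower in CAKi-1, where 20.8% and 17.4% were. The mitochondrial genes have no such neighbours and were left as they were.

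**Figure D5:**
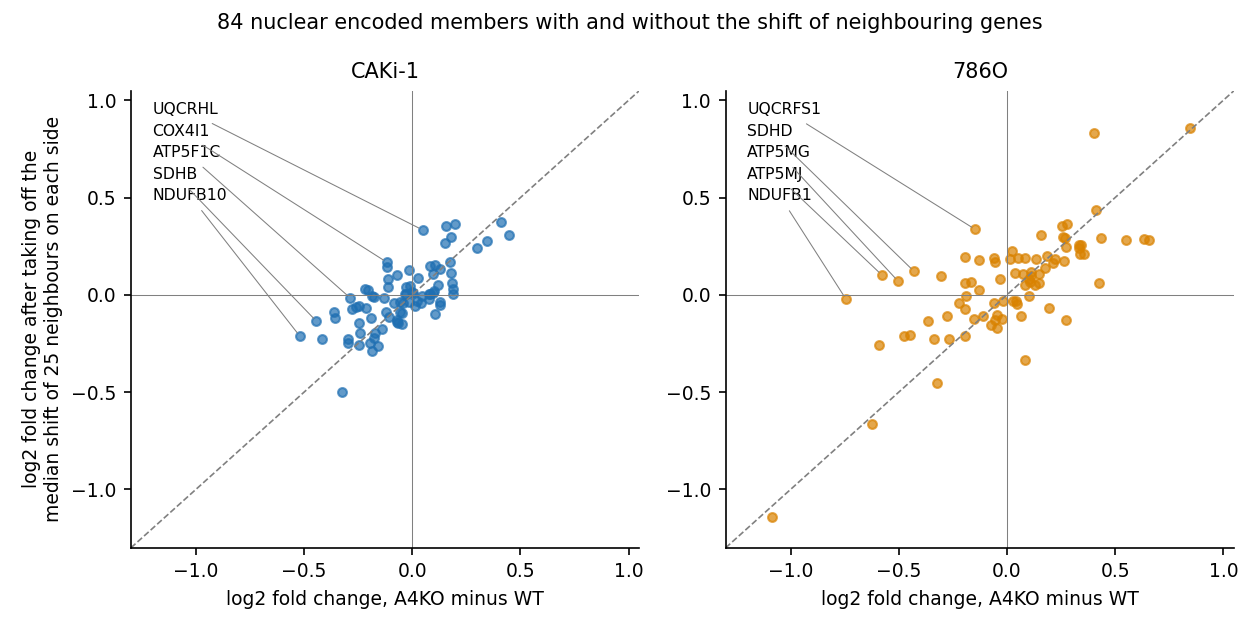
The log2 fold change (A4KO minus WT) of the 84 nuclear genes before (horizontal axis) and after (vertical axis) the median shift of 25 expressed neighbours on each side was taken off, in CAKi-1 (left) and 786O (right), where each point is a gene, the dashed line marks equal values and the 5 genes that moved most are named. In 786O, NDUFB1 moves from -0.75 to -0.02 and ATP5MJ from -0.58 to 0.10.

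Between the lines, the A4KO minus WT change differed for 45 of the 97 members by a limma interaction term over all 15 libraries, against 55.1% of the 15247 genes of both lines. Of these, 30 had the lower value in CAKi-1 (26.3% of all genes) and 15 the higher (28.8%), and 6 of the 30 were mitochondrial. With quantile normalization the split was 27 and 22, against 29.6% and 25.1% of all genes, and when centred on neighbours 23 and 9, against 24.5% and 26.5%. Before centring, the largest differences were NDUFA4L2, UQCRC1 and NDUFA12, higher in CAKi-1 by 1.38, 0.81 and 0.80, and MT-ND1, NDUFB10 and UQCRC2, lower in CAKi-1, at -0.91, -0.79 and -0.77. When centred, NDUFB10 at -0.08 (limma adjusted p = 0.387) and UQCRC2 at -0.24 (limma adjusted p = 0.129) lost their calls and UQCRC1 was at 0.44 (limma adjusted p = 3.6e-04). Among nuclear members, 2 were higher in both lines (NDUFA5 and SDHA), 5 were lower in both (NDUFC1, NDUFS8, NDUFV1, SDHB and SDHD), and 6 were called in opposite directions (among them NDUFA13, UQCRC1, COX6A1, NDUFB10 and NDUFB2). Across the 84 nuclear genes the log2 fold changes of the lines had a Pearson r of -0.12, and across the 13 mitochondrial genes of 0.49, given as a description since genes are not independent replicates.

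NRF1 matches stood in members of every call. Of the members with a promoter, 4 of 24 that were higher in 786O held one, 6 of 20 that were lower and 6 of 22 that were not called. In CAKi-1 the counts were 3 of 5, 2 of 11 and 11 of 50.

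For the companion lists, counts of calls stand beside 27.5% higher and 33.5% lower of all genes in 786O and 17.9% and 21.1% in CAKi-1. Of 55 assembly factors, 14 were higher and 20 lower in 786O (25.5% and 36.4%) and 6 higher and 13 lower in CAKi-1 (10.9% and 23.6%). When centred, the split in 786O turned to 20 higher and 13 lower, against 29.3% and 29.8% of all genes, and that in CAKi-1 was 6 and 9. COX14, which acts on newly made MT-CO1, rose in 786O by 0.87 (SE 0.071, limma adjusted p = 9.8e-05), and COA8 fell by 1.34 (SE 0.098, limma adjusted p = 6.1e-05), with -0.65 (limma adjusted p = 0.0014) when centred. SDHAF1, which helps SDHB receive its iron-sulfur clusters, rose in CAKi-1 from 8.65, 8.04, 7.34 and 8.37 TPM in WT to 12.8, 13.6, 12.6, 16.1 and 12.1 TPM in A4KO libraries, with 0.66 (SE 0.083, limma adjusted p = 3.7e-04). UQCC3, an assembly factor of complex III, fell in CAKi-1 with a log2 fold change of -0.58 (SE 0.12, limma adjusted p = 0.0051) and in 786O with a log2 fold change of -0.39 (SE 0.057, limma adjusted p = 0.0013), and the value in CAKi-1 was -0.35 (limma adjusted p = 0.0338) when centred.

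Of 31 measured genes for transcription, processing and translation of mitochondrial DNA, 11 were higher and 11 lower in 786O and 3 higher and 9 lower in CAKi-1. When centred, 12 were higher and 6 lower in 786O and 3 and 7 in CAKi-1. LRPPRC, which stabilizes mitochondrial mRNAs, rose in 786O from 36.6, 33.1 and 35.6 to 60.2, 57.4 and 57.3 TPM, with 0.72 (SE 0.049, limma adjusted p = 4.7e-05), and fell in CAKi-1 with a log2 fold change of -0.20 (SE 0.071, limma adjusted p = 0.0488), a call lost without A4KO replicates 1 and 4 at -0.11 (limma adjusted p = 0.0937). TFAM, which packages and transcribes mitochondrial DNA, rose in 786O by 0.27 (SE 0.050, limma adjusted p = 0.0034), with 0.17 (limma adjusted p = 0.0180) when centred, and had -0.08 (SE 0.10, limma adjusted p = 0.604) in CAKi-1. The RNA polymerase POLRMT had 0.08 (SE 0.033, limma adjusted p = 0.0886) in 786O and rose in CAKi-1 by 0.35 (SE 0.072, limma adjusted p = 0.005), with 0.22 (limma adjusted p = 0.0852) when centred. The mitochondrial poly(A) polymerase MTPAP fell in both, with a log2 fold change of -0.19 (SE 0.059, limma adjusted p = 0.0298) in 786O and -0.41 (SE 0.092, limma adjusted p = 0.007) in CAKi-1. TFB1M fell in 786O with a log2 fold change of -0.78 (SE 0.12, limma adjusted p = 0.0017). MTPAP lost its call in CAKi-1 when centred, at -0.26 (limma adjusted p = 0.0956), and in 786O with quantile normalization, at -0.09 (limma adjusted p = 0.244).

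Of 20 regulators of respiratory genes, 5 were higher and 7 lower in 786O and 5 higher and 4 lower in CAKi-1. When centred, 7 were higher and 6 lower in 786O and 5 and 3 in CAKi-1. PPARGC1A, the coactivator PGC-1α of mitochondrial biogenesis, rose in 786O from 1.46, 2.24 and 1.42 to 10.8, 8.95 and 9.55 TPM, with 1.999 (SE 0.13, limma adjusted p = 3.4e-05), and in CAKi-1 from 0.805, 0.209, 0.467 and 0.458 to 2.30, 1.51, 1.64, 2.10 and 1.17 TPM, with 0.88 (SE 0.14, limma adjusted p = 0.0015). Its relative PPARGC1B fell in both, with a log2 fold change of -0.82 (SE 0.057, limma adjusted p = 5.0e-05) and -0.37 (SE 0.096, limma adjusted p = 0.0146). PPRC1, a further relative, rose in 786O by 0.47 (SE 0.066, limma adjusted p = 0.0011) and fell in CAKi-1 with a log2 fold change of -0.74 (SE 0.13, limma adjusted p = 0.0017). ESRRA and GABPA, partners of these coactivators, rose in 786O by 0.20 (SE 0.050, limma adjusted p = 0.0127) and 0.36 (SE 0.047, limma adjusted p = 7.4e-04). In CAKi-1 they had -0.21 (SE 0.10, limma adjusted p = 0.13) and -0.02 (SE 0.043, limma adjusted p = 0.702). NRF1 had 0.13 (SE 0.047, limma adjusted p = 0.0525) and -0.10 (SE 0.055, limma adjusted p = 0.188). ESRRA was at 0.35 (limma adjusted p = 0.0011) in 786O when centred. The hypoxia factor HIF1A fell in 786O with a log2 fold change of -3.40 (SE 0.11, limma adjusted p = 3.2e-06), the largest fall of the list in that line. EPAS1 (HIF-2α) rose in CAKi-1 by 1.99 (SE 0.098, limma adjusted p = 2.7e-06), the largest rise of the list in that line.

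The choice by symbol leaves out cytochrome c, cytochrome c1 and the acyl carrier protein. CYCS, cytochrome c, and CYC1, cytochrome c1 of complex III, fell in 786O with a log2 fold change of -0.31 (SE 0.037, limma adjusted p = 5.8e-04) and -0.17 (SE 0.039, limma adjusted p = 0.0095). In CAKi-1 they had -0.27 (SE 0.21, limma adjusted p = 0.339) and -0.28 (SE 0.10, limma adjusted p = 0.0607). When centred, neither was called in 786O, at -0.06 (limma adjusted p = 0.274) and 0.00 (limma adjusted p = 0.985). NDUFAB1, the acyl carrier protein of complex I, rose in 786O from 98.7, 95.4 and 92.5 to 187, 182 and 192 TPM, with 0.96 (SE 0.042, limma adjusted p = 7.9e-06), and had -0.15 (SE 0.074, limma adjusted p = 0.141) in CAKi-1. Its centred value in 786O was 0.60 (limma adjusted p = 4.9e-05). In the list of 29 mobile carriers and exchangers that holds them, 16 were higher and 10 lower in 786O and 1 higher and 9 lower in CAKi-1. When centred, 13 were higher and 7 lower in 786O and 4 and 9 in CAKi-1. Within this list the uncoupling protein UCP2 rose in 786O by 1.20 (SE 0.060, limma adjusted p = 1.3e-05) and COQ6, of ubiquinone synthesis, fell by 1.11 (SE 0.072, limma adjusted p = 3.6e-05). In CAKi-1, COQ8A rose by 0.41 (SE 0.082, limma adjusted p = 0.0042) and PDSS1 fell by 0.69 (SE 0.16, limma adjusted p = 0.0095). When centred, COQ6 had -0.30 (limma adjusted p = 0.0103), COQ8A 0.68 (limma adjusted p = 4.9e-04) and PDSS1 -0.47 (limma adjusted p = 0.0540), and without A4KO replicates 1 and 4 PDSS1 had -0.44 (limma adjusted p = 0.0034).

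Linked pathways were counted in the same way. Of 19 genes of the tricarboxylic acid cycle, 9 were higher and 6 lower in 786O (47.4% and 31.6%) and 1 higher and 7 lower in CAKi-1 (5.26% and 36.8%), beside 27.5% and 33.5% and 17.9% and 21.1% of all genes. Citrate synthase CS fell in CAKi-1 with a log2 fold change of -0.66 (SE 0.099, limma adjusted p = 9.1e-04) and rose in 786O by 0.24 (SE 0.039, limma adjusted p = 0.0022). Of 22 glycolytic genes, 9 were higher and 9 lower in 786O (40.9% each) and 0 higher and 12 lower (54.5%) in CAKi-1, where PGAM1 fell by 0.80 (SE 0.050, limma adjusted p = 1.1e-05). Of 78 mitochondrial ribosomal proteins, 35 were higher and 22 lower in 786O (44.9% and 28.2%) and 5 higher and 25 lower in CAKi-1 (6.41% and 32.1%). Of 80 cytosolic ribosomal proteins, 32 were higher and 25 lower in 786O (40.0% and 31.3%) and 35 higher and 6 lower in CAKi-1 (43.8% and 7.5%). Quantile normalization moved several of these splits in CAKi-1, to 9 higher and 9 lower assembly factors, 4 and 6 genes of mitochondrial DNA expression, 3 and 4 of the tricarboxylic acid cycle, 3 and 9 carriers, 8 and 18 mitochondrial and 27 and 13 cytosolic ribosomal proteins, and in 786O to 8 and 7 regulators. Centring moved other splits, beside 29.3% higher and 29.8% lower of all genes in 786O and 20.8% and 17.4% in CAKi-1. The tricarboxylic acid cycle then lost all 6 lower calls in 786O and had 10 higher, with 2 higher and 5 lower in CAKi-1. The mitochondrial ribosomal proteins had 26 higher and 13 lower in 786O and 3 and 14 in CAKi-1. The cytosolic ribosomal proteins had 30 higher and 7 lower in 786O and 31 and 2 in CAKi-1.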

How the data were processed

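RNA of 15 libraries from 2 ccRCC cell lines was analysed as gene-level TPM, made by the authors with kallisto on hg38 and deposited as 1 table per line. The unit was inferred from the values, whose sums per library lay between 961437 and 973887, with no value at 0 among the deposited TPM. The methods name NEBNext poly(A) selection and paired reads of 150 bases at 3000000 reads per sample. TPM keeps no depth of single libraries, so the counting error of single values was not computed.

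Libraries were grouped by their labels. In each line alone, log2(TPM + 1) of all genes was compared with limma 3.58.1 in R 4.3.3, Benjamini-Hochberg adjusted over all genes of the line and without a filter on low values, and a gene was called at an adjusted p of at most 0.05. A log2 fold change understates changes of genes near 1 TPM. The difference of the effects was an interaction term over all 15 libraries and the 15247 genes of both lines. Replicate numbers did not pair the libraries. For centred values, the median deviation of up to 25 neighbours on each side from their own means was taken off in each library, and limma was run again. These neighbours had a mean of at least 1 on the log2 scale and were ordered by GENCODE 44. The shift given for a gene is its log2 fold change minus the centred one. Promoters and motifs were read from RefSeq (GRCh38.p14), mitochondrial sequence from hg38.

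The members, lists and tests were chosen with earlier results of these data known. Named were the mitochondrial and complex II genes, paralogues and regulators of complexes IV and V, the 5 largest rises and falls per line among nuclear members whose groups did not overlap, the 3 largest differences between the lines in each direction, members past a log2 fold change of 1, the highest member of each complex, 12 set companion genes, and in each companion list the largest rise and fall. On simulated data with 100 genes changed by 0.5 and 100 by 1 on the log2 scale, the fit recovered 67% and 93% in CAKi-1 (16296 genes), 94% and 100% in 786O (16188 genes) and 72% and 92% for the interaction (15247 genes). Of the unchanged genes, 8, 12 and 5 were called. The changed genes were drawn from those with a mean log2(TPM + 1) of at least 5, with noise independent between genes. The rates therefore do not cover members at low levels or libraries that deviate together. Alternatives were another pseudocount, a filter on low values, other scalings, a replicate block, left-out libraries and neighbour-centring. 1 result is not reported here.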

Additional observations from a re-analysis of the deposited data

Results flagged for a closer look

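In CAKi-1, 9 of the 96 values tested stood far from the other libraries of their group by Dixon's criterion, which marks about 1 in 20 groups by chance. WT replicate 4 was far below the other WT libraries for MT-ATP6 (3393 TPM), MT-ND1 (3731 TPM), COX6B1 (434 TPM) and the sum of the 13 mitochondrial genes (62190.4 TPM), and far above them for NDUFA4 (147 TPM) and COX7A2L (113 TPM). A4KO replicate 5 was far above the other A4KO libraries for NDUFA4 (116 TPM), COX7B (145 TPM) and UQCRC2 (87.9 TPM). Groups of 3, as in 786O, were not tested in this way.

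The A4KO minus WT change differed between the lines, by the limma interaction term, for 30 of the 45 named members, some of which were named for large differences, against 45 of all 97 members and 55.1% of all genes. On the log2 scale, the effect in CAKi-1 minus the effect in 786O was below 0 for the mitochondrial genes MT-ND1 (-0.91), MT-ATP8 (-0.59), MT-ATP6 (-0.49), MT-ND3 (-0.49), MT-CO3 (-0.46) and MT-ND2 (-0.44). It was also below 0 for the nuclear genes NDUFB10 (-0.79), UQCRC2 (-0.77), NDUFA7 (-0.72), COX5A (-0.69), NDUFA8 (-0.64), COX6A1 (-0.61), COX7B (-0.56), COX4I1 (-0.54), ATP5MC1 (-0.50), ATP5IF1 (-0.44), COX7A2L (-0.41), COX8A (-0.41), SDHC (-0.34) and ATP5MC2 (-0.29). It was above 0 for NDUFA4L2 (1.38), UQCRC1 (0.81), NDUFA12 (0.80), NDUFB1 (0.69), NDUFA13 (0.65), ATP5MJ (0.55), ATP5MG (0.53), COX6B1 (0.29), NDUFS5 (0.24) and SDHD (0.24). When centred on neighbouring genes, 9 of these differences were no longer called, namely NDUFB10, UQCRC2, NDUFA8, ATP5MC1, ATP5MC2, ATP5IF1, NDUFA13, NDUFS5 and ATP5MG, and those of SDHC, SDHD, COX4I1, COX6B1, NDUFB1 and ATP5MJ changed sign, of which SDHD alone was called in the new direction.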

How the results depend on the processing

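Among the 45 named members, no value that was called changed direction under another pseudocount, a filter at 1 TPM, quantile normalization, rescaling, median-centring, a trended robust fit or the replicate block, other than the level sum given last. In CAKi-1, the 1 mitochondrial gene that was lower became 3 with quantile normalization, 0 with a replicate block and 0 to 4 with 1 library left out, 0 without WT replicate 1, 2 or 3 or A4KO replicate 2, 3 or 4, 4 without WT replicate 4 and 2 without A4KO replicate 5. In 786O, the 9 mitochondrial genes that were higher became 7 with quantile normalization, where MT-ND4L was at 0.00. The 6 nuclear genes of CAKi-1 that were higher became 22 with quantile normalization (12 lower, the median of all 84 moving from -0.05 to 0.03), 3 with the replicate block and 13 without A4KO replicates 1 and 4, an alternative chosen after seeing the data. Neighbour-centring changed the 15 lower nuclear genes of CAKi-1 to 6 and the 23 of 786O to 15, and turned SDHD (0.12), COX6B1 (0.19), COX6B2 (0.17), NDUFA13 (0.10), ATP5MJ (0.10) and ATP5MG (0.0705) above 0 and NDUFB10 (-0.13) below 0 in 786O. For the differences between the lines, centring was added after seeing the data. It changed the 15 nuclear genes higher in CAKi-1 to 9, and turned the differences of SDHC (0.0071), COX4I1 (0.11), SDHD (-0.24), COX6B1 (-0.18), COX6B2 (-0.27), NDUFB1 (-0.0706) and ATP5MJ (-0.0977). The replicate numbers only name the libraries, since deviations of libraries with the same number correlated at -0.061 to 0.134, and with the replicate block the counts were otherwise 14 lower nuclear genes in CAKi-1 and 9 higher and 1 lower mitochondrial and 25 and 20 nuclear genes in 786O. The log2 ratio of the level sums, taken as the median gene in place of the sum, changed from 0.0022 to -0.14 for mitochondrial and from -0.05 to -0.14 for nuclear genes of CAKi-1, from 0.32 to 0.42 for mitochondrial genes of 786O and from 0.05 to -0.21 for its nuclear genes, which was 0.0754 relative to other transcripts. Without A4KO replicates 1 and 4 the CAKi-1 sums were at -0.06 (mitochondrial) and 0.02 (nuclear). The cause of these changes was not tested. TPM keeps no depth per library and is a share, so a higher level of abundant transcripts lowers that of others.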
